A study of Mus musculus with 15 samples.

Results

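The DNA replication genes described here are 40 mouse genes, chosen as a list of symbols with known roles in copying the genome, and were looked up among the 46078 genes of the table. All 40 were found, by matching the Ensembl identifiers to GENCODE M21. RNA was sequenced from the podocyte fraction of male C57BL/6J mice, that is, the cells of a digested kidney cortex that were held on magnetic beads through antibodies to nephrin. The 3 groups were uninjected young mice of 4 months (young, 5 libraries), mice of 21 months that received the isotype control antibody 2A3 (IgG2a, 4 libraries), and mice of 21 months that received the PD-1 blocking antibody RMP1-14 (aPD1ab, 4 libraries). Both antibodies were injected into the peritoneum once a week at 12 mg/kg for 8 weeks (the sample titles of the aPD1ab mice give 47 days). Because the young mice had no injection, age and injection cannot be told apart when either aged group is set against them. The fraction is an enrichment and not a pure cell type, and PD-1 blockade reached the whole animal. The series describes the replicates as biological, so p-values measure the spread between mice.

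A cell that is about to divide must first mark and then open its origins of replication. The origin recognition complex (Orc1, Orc6) with Cdc6 and Cdt1 loads the ring-shaped MCM helicase (Mcm2 to Mcm7) onto DNA, a step called licensing. Cdc45 and the GINS complex (Gins1 to Gins4) then switch the helicase on with the help of Mcm10, DNA polymerase alpha and its primase start each strand, and polymerases epsilon and delta extend them behind the clamp Pcna, which the RFC complex loads. RPA covers the single-stranded DNA, Fen1 and Lig1 finish the lagging strand, and Rrm1, Rrm2, Tyms, Tk1 and Dut provide deoxynucleotides. Many of these genes are known targets of the E2F transcription factors and are transcribed mostly around the start of S phase. Mature podocytes seldom divide.

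The promoters carried the letters of the E2F consensus far more often than promoters at large. Windows of 250 bases before and 50 bases after the annotated start were available from RefSeq (GRCm38.p6) for 33 of the 40 genes. The letters searched were TTTCCCGC, TTTCGCGC, TTTGCCGC and TTTGGCGC on either strand. Of the 33 genes, 14 (42.4%) held at least 1 match, against 26.7% of 30 genes of a second list of replication genes and 2.6% of 27025 genes with a window. With only the 2 forms that end in GCGC, the shares were 30.3%, 10% and 0.929%. The 14 genes were Orc1, Cdc6, Cdt1, Mcm3, Mcm5, Mcm6, Mcm7, Gins3, Pola1, Pole2, Pold1, Pold3, Rfc3 and Lig1. A match is a string of letters, not a shown binding site.

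Of the promoters printed here, 5 hold a match and belong to genes called in the comparisons below without IgG2a library 1. Tyms is printed as the member that went the other way and holds no match. This choice does not show that matches go with direction. In IgG2a against young mice without IgG2a library 1, 10 of 18 tested genes without a match were higher. Of the 14 with a match 11 were, and of all genes 22.1%. Pola2, which holds no match and is not printed, had the smallest p there. Each printed promoter runs 5′ to 3′ on the strand of its gene. The capitals mark E2F letters, and where capitals run for more than 8 bases 2 matches overlap.
Mcm3 (chr1:20820263-20820562, minus strand): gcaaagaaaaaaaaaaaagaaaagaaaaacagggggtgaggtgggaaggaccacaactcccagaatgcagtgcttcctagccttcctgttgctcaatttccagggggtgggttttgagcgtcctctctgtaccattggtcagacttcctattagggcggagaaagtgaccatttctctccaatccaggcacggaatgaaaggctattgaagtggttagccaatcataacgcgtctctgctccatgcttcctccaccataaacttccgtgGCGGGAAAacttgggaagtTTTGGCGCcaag
Mcm5 (chr8:75109259-75109558, plus strand): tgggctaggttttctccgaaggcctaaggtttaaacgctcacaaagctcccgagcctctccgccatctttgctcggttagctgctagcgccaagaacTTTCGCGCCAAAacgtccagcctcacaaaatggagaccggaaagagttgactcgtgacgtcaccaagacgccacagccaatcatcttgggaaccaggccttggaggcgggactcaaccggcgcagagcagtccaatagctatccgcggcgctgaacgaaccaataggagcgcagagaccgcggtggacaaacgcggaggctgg
Mcm6 (chr1:128359656-128359955, minus strand): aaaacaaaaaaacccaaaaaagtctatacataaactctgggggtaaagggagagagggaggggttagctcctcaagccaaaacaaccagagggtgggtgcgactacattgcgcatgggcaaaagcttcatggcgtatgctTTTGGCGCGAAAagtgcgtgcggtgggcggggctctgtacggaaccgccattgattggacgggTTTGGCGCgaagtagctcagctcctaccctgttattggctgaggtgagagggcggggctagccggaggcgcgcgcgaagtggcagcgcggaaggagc
Orc1 (chr4:108579204-108579503, plus strand): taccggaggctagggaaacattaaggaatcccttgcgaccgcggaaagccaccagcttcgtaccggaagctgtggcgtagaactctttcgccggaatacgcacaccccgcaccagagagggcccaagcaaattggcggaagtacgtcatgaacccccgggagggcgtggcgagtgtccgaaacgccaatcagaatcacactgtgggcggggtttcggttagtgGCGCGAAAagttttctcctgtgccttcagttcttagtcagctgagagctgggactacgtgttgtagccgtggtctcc
Pole2 (chr12:69228141-69228440, minus strand): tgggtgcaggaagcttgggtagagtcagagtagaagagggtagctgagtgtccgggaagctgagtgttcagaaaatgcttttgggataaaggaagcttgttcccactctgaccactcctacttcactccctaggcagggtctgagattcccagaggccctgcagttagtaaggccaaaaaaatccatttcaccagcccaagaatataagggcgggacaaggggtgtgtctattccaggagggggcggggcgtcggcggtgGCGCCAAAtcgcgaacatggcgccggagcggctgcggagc
Tyms (chr5:30073576-30073875, minus strand): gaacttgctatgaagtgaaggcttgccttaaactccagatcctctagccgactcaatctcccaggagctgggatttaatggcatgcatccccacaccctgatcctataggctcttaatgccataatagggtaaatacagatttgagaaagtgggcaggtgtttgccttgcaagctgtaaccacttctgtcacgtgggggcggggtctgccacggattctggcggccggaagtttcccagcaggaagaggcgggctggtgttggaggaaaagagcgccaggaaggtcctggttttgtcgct

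The matches of Mcm3 began 19 and 38 bases after the annotated start, that of Pole2 began 10 bases after it, and that of Orc1 began 27 bases before it. The matches of Mcm6 lay 110, 106 and 47 bases before the start, and those of Mcm5 lay 153 and 149 bases before it. In Mcm5 and in the upstream pair of Mcm6, matches on the 2 strands overlap by 4 bases. A set of 25 mitosis genes (22 with a window) had E2F letters in 4.55%, but held the CHR element TTTGAA in 72.7%, where the DNA replication genes held it in 12.1% and all genes in 20.2%. CCAAT, the NF-Y box, was found in 60.6% of the DNA replication genes, 77.3% of the mitosis genes and 41.1% of all genes.

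**Figure D1:**
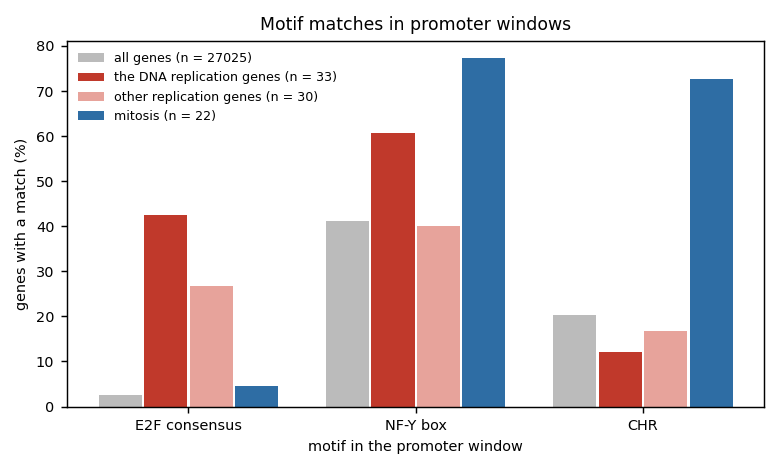
Share of genes (vertical axis, in percent) whose promoter window holds the E2F consensus, the NF-Y box or the CHR element, for all genes, the DNA replication genes, 38 other replication genes and 25 mitosis genes, with the number that had a window in the key. E2F letters are most frequent in the DNA replication genes (42.4%), followed by the other replication genes (26.7%), and the CHR element in the mitosis genes (72.7%).

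Depth was similar between groups, at 21962193 to 27685122 counts per young library, 20500755 to 32717100 per IgG2a library and 19912969 to 31493051 per aPD1ab library. Levels are CPM, that is, counts relative to the library total after TMM scaling, and log2 fold changes are given with ± their standard error (SE). IgG2a library 1 stood apart from the other 3 IgG2a libraries, so results that rest on the IgG2a group are given with and without it. It was set aside for its values, which for the DNA replication genes lay near those of young mice. Counts and p-values from the fits without it therefore depend on that choice and are no independent test. IgG2a library 1 was within the young range for 72.5% of the 40 genes and for 49.6% of 16330 genes, so it was not near young mice throughout. The 10 podocyte markers summed to 1034 to 1599 CPM in young, 582.5 to 759 in IgG2a and 336 to 936 in aPD1ab libraries, and Nphs1, which encodes nephrin, was at 43.2 to 81.4 CPM in young libraries, 19.4 in IgG2a library 1, 4.15 to 7.11 in IgG2a libraries 2 to 4, and 7.61 to 42.8 in aPD1ab libraries. Other cell types were present as well. The 8 macrophage markers summed to 1408 to 2512 CPM in young libraries, 2028 in IgG2a library 1, 4972 to 6607 in IgG2a libraries 2 to 4, and 1519 to 3661 in aPD1ab libraries. The 10 proximal tubule markers summed to 5582 to 8807, 4053, 853 to 1306, and 4168 to 12400 CPM in the same order. In bulk RNA, fewer cells of a type and less RNA per cell cannot be told apart.

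The genes differed widely in level. Per kilobase of exon, Pcna was the highest, at a mean of 25.5 CPM per kb over the 13 libraries, followed by Gins4 (7.96), Rpa1 (6.79), Rfc1 (6.03), Mcm6 (5.56) and Pold3 (5.41). Cdc6 (0.249), Orc1 (0.160) and Fen1 (0.140) were the lowest. Their lowest libraries held 15, 6 and 2 counts, so single values of Orc1 and Fen1 are imprecise. Of the exon bases of Fen1, 84.2% lie over Tmem258 and Gm10143 on the opposite strand, and of those of Gins2 67.3% lie over Gse1. The strand setting of the counting is not given in the sources used here, so the levels of Fen1 and Gins2 are uncertain. Pcna has 2 annotated copies (Pcna-ps1 and Pcna-ps2) with which it could share reads.

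Seen over all 40 genes, 3 of the 13 libraries stood above the rest after TMM scaling. The median difference from the young mean, on the log2(CPM + 0.25) scale, was 0.048, 0.17, -0.11, -0.15 and 0.046 in young libraries 1 to 5. In IgG2a libraries 2, 3 and 4 it was 0.70, 0.47 and 0.56, with 39, 36 and 37 of the 40 genes above the young mean. In IgG2a library 1 it was -0.015, with 15 genes above. The aPD1ab libraries lay at 0.11, 0.11, 0.11 and 0.14. The same median over 16330 genes lay between -0.071 and 0.016 in the 13 libraries. Summed over the 40 genes, the level was 401 to 503 CPM in young libraries, 429 in IgG2a library 1, 598 to 725 in IgG2a libraries 2 to 4, and 467 to 493 in aPD1ab libraries. The TMM factors were 0.924, 0.793 and 0.706 in IgG2a libraries 2 to 4 and 1.04 in IgG2a library 1. They were 1.04 to 1.18 in young and 0.886 to 1.13 in aPD1ab libraries. A lower factor raises the CPM, and levels per library without these factors are not given here.

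**Figure D2:**
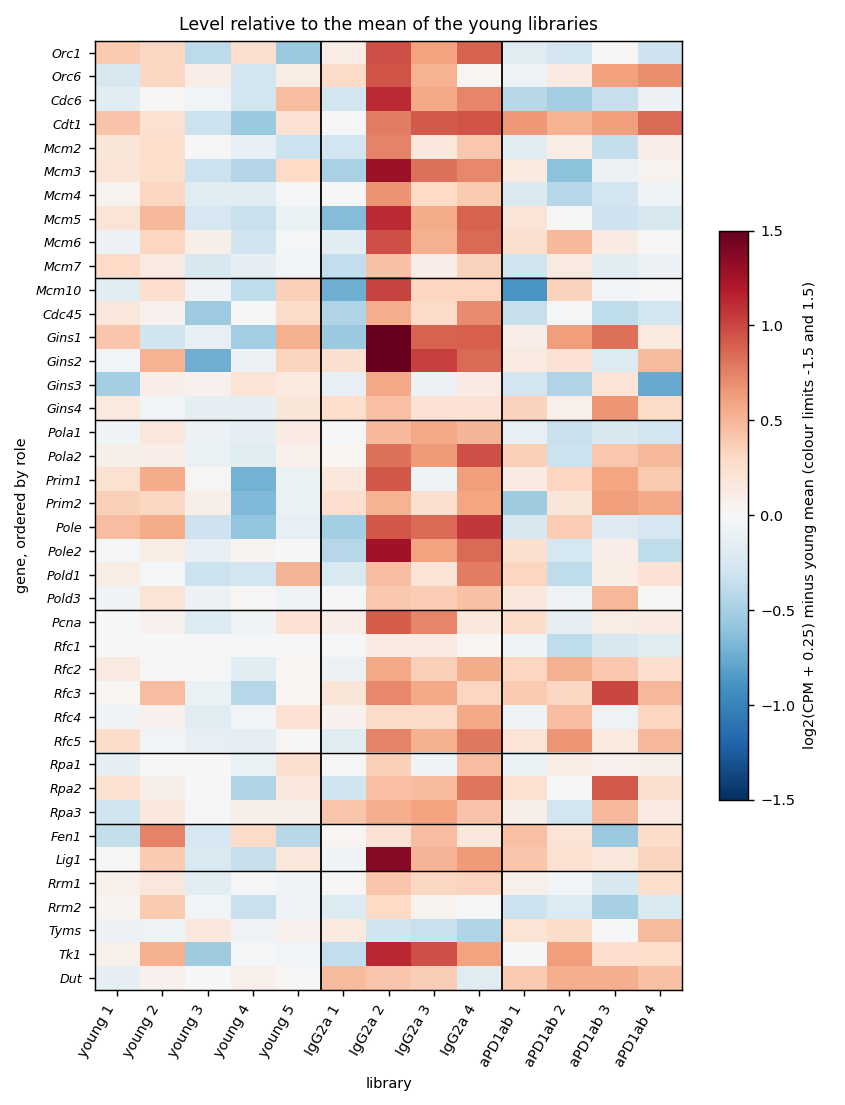
Level of each of the 40 DNA replication genes (rows, ordered by role from licensing at the top to nucleotide supply at the bottom) in each of the 13 libraries (columns), as log2(CPM + 0.25) minus the mean of the young libraries; red is higher and blue lower. IgG2a libraries 2 to 4 are red in most rows (medians 0.70, 0.47 and 0.56), while IgG2a library 1 resembles the young libraries (median -0.015).

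The question of the first comparison was how aged IgG2a mice differ from young mice. Over all libraries, 2 of the 39 genes tested were higher in IgG2a mice and none was lower: Pola2, a subunit of polymerase alpha, and Rpa3, the small subunit of RPA (edgeR quasi-likelihood test, Benjamini-Hochberg adjusted p under 0.05). Of all 15953 genes tested 9.05% were called higher, so that share of 2 in 39 is no more than the background. By sign, 38 of the 39 estimates were above 0, against 53.7% of all genes, and 22 had an unadjusted p under 0.05, against 36.2%. The median log2 fold change was 0.47 for the 39 genes and 0.038 for all genes. Other tools called more members higher on the same libraries, 13 with DESeq2 and 28 with limma's voom with sample weights. The shares of all genes called by these tools are not given here, so these counts cannot be set against a background. Fen1 did not pass the filter for low counts.

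Without IgG2a library 1, 27 of the 39 genes were higher, where 22.1% of all genes were, and 33 had an unadjusted p under 0.05, as had 53.4% of all genes. None was lower (23.5% of all genes were), and the median was 0.60 against -0.0062 for all genes. When scaling used library totals only, all genes shifted by -0.38 in the comparison of all libraries, and the median of the DNA replication genes then was 0.022; relative to all genes it was 0.40, against 0.44 with TMM. Under that scaling 17 of the 38 positive estimates turned to between -0.34 and -0.0064 (Mcm2, Mcm4, Mcm7, Mcm10, Cdc45, Gins3, Gins4, Pold1, Pold3, Rfc1, Rfc2, Rfc4, Rpa1, Rpa2, Rrm1, Rrm2 and Dut). With any other IgG2a library or any young library left out, none of the DNA replication genes tested was called higher. The shares of all genes called in those fits are not given here, so that count has no background beside it.

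The second comparison asked what PD-1 blockade did in aged mice. Between aPD1ab and IgG2a mice, over all libraries, none of the 39 genes tested was called in either direction. No gene among 15530 was (0% higher and 0% lower), although 4341 (28%) had an unadjusted p under 0.05, as did 8 of the 39. Of the 39 estimates, 35 were below 0 (50.9% of all genes were), with a median of -0.39 against -0.011 for all genes and a lowest adjusted p of 0.109 from edgeR. Other tools called more: DESeq2 called 5 of the genes lower, a single edgeR fit of all 3 groups 4, and limma's voom with sample weights 17 lower and 1 higher. How many of all genes these fits called is not given here, so the counts have no background to be read against. With library totals only, all genes shifted to a median of 0.24, and 13 of the 35 negative estimates turned to between 0.011 and 0.27 (Orc6, Cdt1, Mcm7, Prim1, Prim2, Pold1, Pold3, Rfc2, Rfc4, Rfc5, Rpa1, Rpa2 and Rrm1).

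Without IgG2a library 1, 14 of the 39 genes were lower with aPD1ab and 1, Tyms, was higher, where 13.2% and 17.1% of all genes were. By sign 36 were below 0, against 49.7% of all genes, and 22 had an unadjusted p under 0.05, against 43.8%. The median was then -0.47, against 0.0052 for all genes. The 14 were Orc1, Cdc6, Mcm3, Mcm4, Mcm5, Mcm6, Cdc45, Gins2, Pola1, Pole, Pole2, Pcna, Rfc1 and Tk1. Both comparisons share the IgG2a libraries and are not independent of each other.

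In aPD1ab against young mice, the comparison that does not use the IgG2a libraries, 3 of 39 genes were higher and none was lower, where 12.4% of all 15986 genes were higher and 9.97% lower. The 3 were Dut, Rfc2 and Cdt1. The median log2 fold change was 0.14 against 0.017 for all genes, with 25 estimates above 0 and 14 below, where 51.3% and 48.7% of all genes were, and 7 of the 39 had an unadjusted p under 0.05, against 36.9%. Orc1 did not pass the filter for low counts in this comparison.

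**Figure D3:**
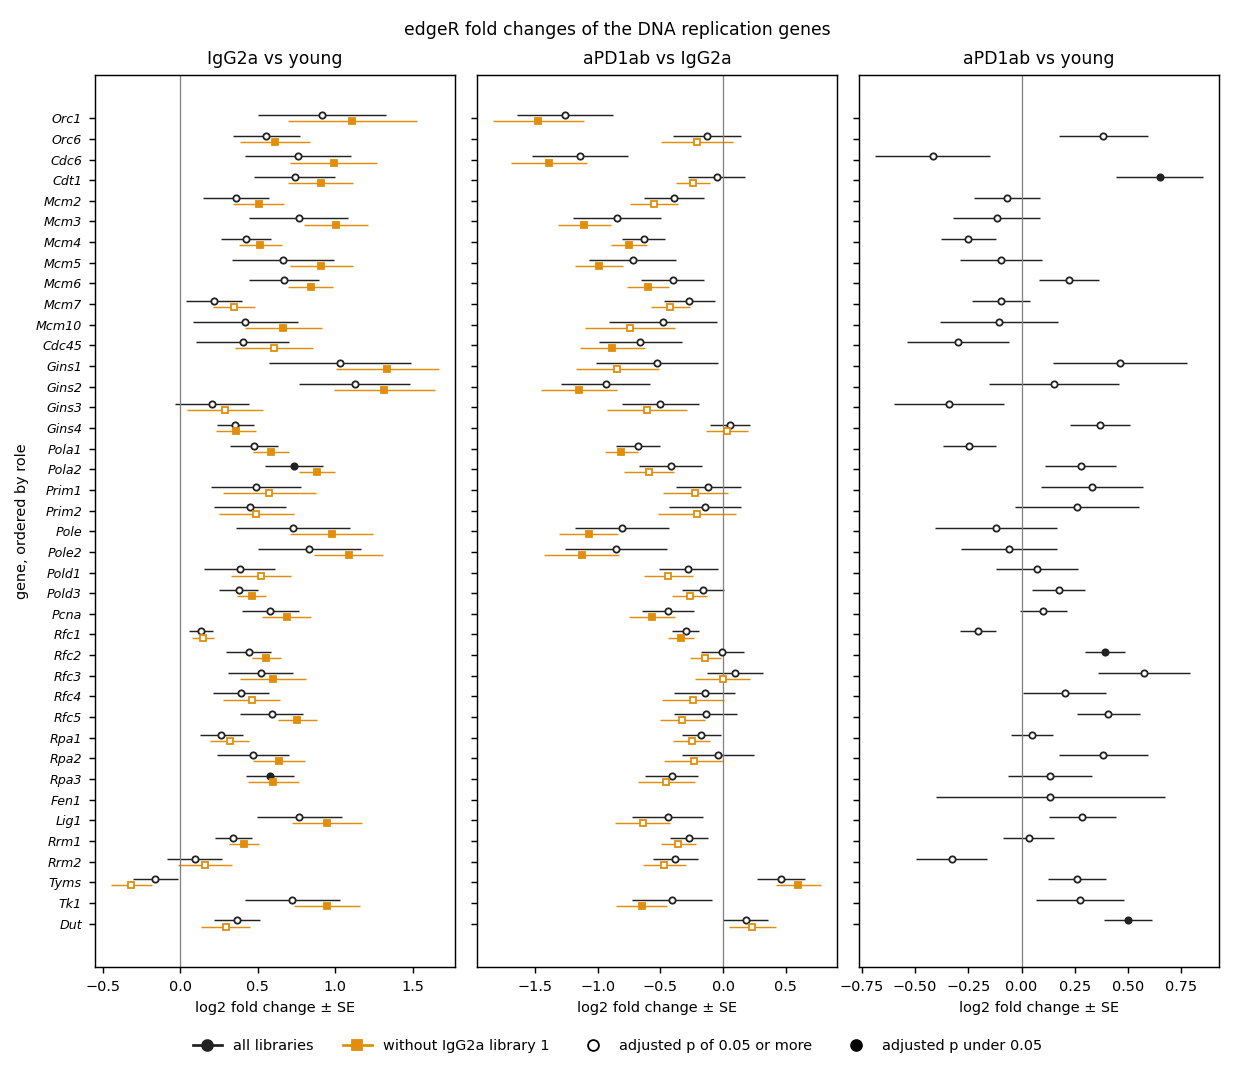
edgeR log2 fold change ± SE (horizontal axes) of each DNA replication gene (vertical axis, ordered by role) for IgG2a vs young, aPD1ab vs IgG2a and aPD1ab vs young, with all libraries (black circles) and without IgG2a library 1 (orange squares); filled symbols have an adjusted p under 0.05. Of the 39 genes tested, 38 lie above 0 in the left panel and 35 below 0 in the middle panel, with Tyms on the other side in both, and filled symbols are mainly orange.

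The separation of single libraries shows the same division. All 4 IgG2a libraries were above all young libraries for 2 of the 40 genes (Gins4 and Rpa3), a share of 5% against 4.78% of 16330 genes. IgG2a libraries 2 to 4 were above all young libraries for 24 genes (60%), against 19.3% of all genes, and above all aPD1ab libraries for 18 (45%), against 18%. They were above both groups for 15 genes (37.5%), against 10.3%: Orc1, Cdc6, Mcm3, Mcm5, Mcm6, Cdc45, Gins1, Gins2, Pola1, Pola2, Pole, Pole2, Rfc1, Lig1 and Rrm1. IgG2a library 1 was the lowest of its group for 33 genes (82.5%), against 34.3%, and within the young range for 29 (72.5%), against 49.6%. IgG2a library 2 was the highest of all 13 libraries for 21 genes (52.5%), against 9.66%. All 4 aPD1ab libraries were below all 4 IgG2a libraries for 5 genes (Orc1, Mcm4, Pola1, Rfc1 and Rrm2, 12.5%), against 4.65%, and above them for none, against 7.05%. They were above all young libraries for 3 (Cdt1, Rfc2 and Dut, 7.5%), against 11.2%, and below them for 1 (Rfc1, 2.5%), against 10.4%. IgG2a library 1 was set aside here for its values, and the levels rest on TMM scaling, so these counts are a description.

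Most licensing genes were called once IgG2a library 1 was left out. Against young mice 9 of the 10 were higher (median log2 fold change 0.87), the exception being Mcm7, and against IgG2a mice 6 of the 10 were lower with aPD1ab (median -0.67). Of all genes 22.1% were higher and 13.2% lower in these fits. Over all libraries the medians were 0.67 and -0.52 and none of the 10 was called.

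Mcm3, a subunit of the MCM ring (ENSMUSG00000041859, chromosome 1, 20802968 to 20820312, minus strand), was at 18.3, 19.2, 12.7, 11.7 and 19.7 CPM in young libraries 1 to 5, 11.3, 39.4, 28.3 and 26.3 in IgG2a libraries 1 to 4 and 17.7, 10.3, 15.03 and 16.5 in aPD1ab libraries 1 to 4. IgG2a libraries 2 to 4 lay above every other library, and IgG2a library 1 lay below every young library. Mcm3 in IgG2a against young mice gave a log2 fold change of 0.76 ± 0.32 over all libraries (adjusted p = 0.114) and 1.00 ± 0.20 without IgG2a library 1 (adjusted p = 0.00305). Mcm3 had an aPD1ab to IgG2a log2 fold change of -0.85 ± 0.35 over all libraries (adjusted p = 0.158) and -1.11 ± 0.21 without IgG2a library 1 (adjusted p = 0.00967).

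Mcm5, a further subunit of the ring (ENSMUSG00000005410, chromosome 8, 75109569 to 75128439, plus strand) was at 13.5, 16.7, 9.80, 9.26 and 10.9 CPM in young libraries 1 to 5, 7.42, 25.8, 17.4 and 21.98 in IgG2a libraries 1 to 4 and 13.4, 11.8, 9.41 and 9.92 in aPD1ab libraries 1 to 4. Again, IgG2a libraries 2 to 4 lay above all others, with IgG2a library 1 the lowest of the 13. For Mcm5 the log2 fold change of IgG2a against young was 0.66 ± 0.33 over all libraries (adjusted p = 0.175) and 0.91 ± 0.20 without IgG2a library 1 (adjusted p = 0.00471). Mcm5 in aPD1ab mice differed from IgG2a mice by -0.72 ± 0.35 over all libraries (adjusted p = 0.208) and -0.99 ± 0.19 without IgG2a library 1 (adjusted p = 0.00964) on the log2 scale.

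Mcm6, also of the ring (ENSMUSG00000026355, chromosome 1, 128331590 to 128359664, minus strand) was at 20.02, 26.8, 22.5, 17.3 and 20.8 CPM in young libraries 1 to 5, 18.9, 41.9, 30.9 and 38.5 in IgG2a libraries 1 to 4 and 25.1, 29.9, 23.2 and 21.4 in aPD1ab libraries 1 to 4. It had the smallest p of the licensing genes against young once IgG2a library 1 was left out. Mcm6 in IgG2a against young mice gave a log2 fold change of 0.67 ± 0.23 over all libraries (adjusted p = 0.0669) and 0.84 ± 0.15 without IgG2a library 1 (adjusted p = 0.000944). Mcm6 had an aPD1ab to IgG2a log2 fold change of -0.40 ± 0.25 over all libraries (adjusted p = 0.314) and -0.60 ± 0.17 without IgG2a library 1 (adjusted p = 0.0288).

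Mcm4, another subunit of the ring, was at 18.9, 22.8, 16.1, 16.3 and 17.9 CPM in young libraries 1 to 5, 18.2, 29.4, 22.5 and 24.1 in IgG2a libraries 1 to 4 and 15.7, 13.5, 14.9 and 17.3 in aPD1ab libraries 1 to 4. Every aPD1ab library was below every IgG2a library, IgG2a library 1 included. For Mcm4, the log2 fold change in aPD1ab against IgG2a mice was -0.63 ± 0.17 over all libraries (adjusted p = 0.109) and -0.75 ± 0.14 without IgG2a library 1 (adjusted p = 0.00953). Mcm4 had a log2 fold change in IgG2a against young mice of 0.42 ± 0.16 over all libraries (adjusted p = 0.0918) and 0.52 ± 0.14 without IgG2a library 1 (adjusted p = 0.0110).

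Mcm2, also of the ring, was at 16.8, 17.9, 14.8, 13.6 and 11.8 CPM in young libraries 1 to 5, 12.1, 24.99, 16.6 and 19.7 in IgG2a libraries 1 to 4 and 13.2, 16, 11.5 and 15.9 in aPD1ab libraries 1 to 4. The young and IgG2a ranges overlapped, with IgG2a library 3 below young libraries 1 and 2. For Mcm2 the log2 fold change of IgG2a against young was 0.36 ± 0.21 over all libraries (adjusted p = 0.248) and 0.51 ± 0.17 without IgG2a library 1 (adjusted p = 0.0289). Mcm2 in aPD1ab mice differed from IgG2a mice by -0.39 ± 0.24 over all libraries (adjusted p = 0.305) and -0.55 ± 0.19 without IgG2a library 1 (adjusted p = 0.0608) on the log2 scale. Mcm7 was called in no comparison and lay between 14.9 and 26.1 CPM.

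Orc1, the large ATP-binding subunit of the origin recognition complex, was at 0.663, 0.611, 0.278, 0.571 and 0.224 CPM in young libraries 1 to 5, 0.498, 1.10, 0.808 and 1.04 in IgG2a libraries 1 to 4 and 0.360, 0.326, 0.454 and 0.309 in aPD1ab libraries 1 to 4. The 4 aPD1ab libraries lay below the 4 IgG2a libraries, but within the young range, and the counts behind these values were 6 to 27. For Orc1, the log2 fold change in aPD1ab against IgG2a mice was -1.26 ± 0.38 over all libraries (adjusted p = 0.110) and -1.47 ± 0.36 without IgG2a library 1 (adjusted p = 0.0193). That was the most negative estimate of the 39 genes in both fits. Orc1 had a log2 fold change in IgG2a against young mice of 0.91 ± 0.41 over all libraries (adjusted p = 0.139) and 1.11 ± 0.41 without IgG2a library 1 (adjusted p = 0.0489).

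Cdc6, which helps load the MCM ring, was at 0.995, 1.16, 1.11, 0.906 and 1.68 CPM in young libraries 1 to 5, 0.909, 2.78, 1.83 and 2.07 in IgG2a libraries 1 to 4 and 0.801, 0.733, 0.851 and 1.07 in aPD1ab libraries 1 to 4. Of all libraries IgG2a 2 to 4 were the highest, and aPD1ab libraries 1 to 3 were below each young library. Cdc6 had an aPD1ab to IgG2a log2 fold change of -1.14 ± 0.38 over all libraries (adjusted p = 0.122) and -1.39 ± 0.30 without IgG2a library 1 (adjusted p = 0.0136). Cdc6 in IgG2a against young mice gave a log2 fold change of 0.76 ± 0.34 over all libraries (adjusted p = 0.137) and 0.99 ± 0.28 without IgG2a library 1 (adjusted p = 0.0149).

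Cdt1, the partner of Cdc6 in loading, was at 9.58, 8.34, 5.59, 4.70 and 8.25 CPM in young libraries 1 to 5, 6.98, 12.1, 13.6 and 13.8 in IgG2a libraries 1 to 4 and 11.2, 10.2, 11 and 12.9 in aPD1ab libraries 1 to 4. It departed from Cdc6, since the aPD1ab libraries, too, were all above the young ones. Cdt1 in aPD1ab against young mice had a log2 fold change of 0.65 ± 0.20 (adjusted p = 0.0434). Cdt1 had a log2 fold change in IgG2a against young mice of 0.74 ± 0.26 over all libraries (adjusted p = 0.0763) and 0.91 ± 0.21 without IgG2a library 1 (adjusted p = 0.00558). For Cdt1, the log2 fold change in aPD1ab against IgG2a mice was -0.050 ± 0.23 over all libraries (adjusted p = 0.904) and -0.24 ± 0.13 without IgG2a library 1 (adjusted p = 0.203). Orc6 was called only against young without IgG2a library 1, at a log2 fold change of 0.55 ± 0.22 over all libraries (adjusted p = 0.0966) and 0.61 ± 0.22 without IgG2a library 1 (adjusted p = 0.0455), and ranged from 4.29 to 10.3 CPM over the 13 libraries.

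**Figure D4:**
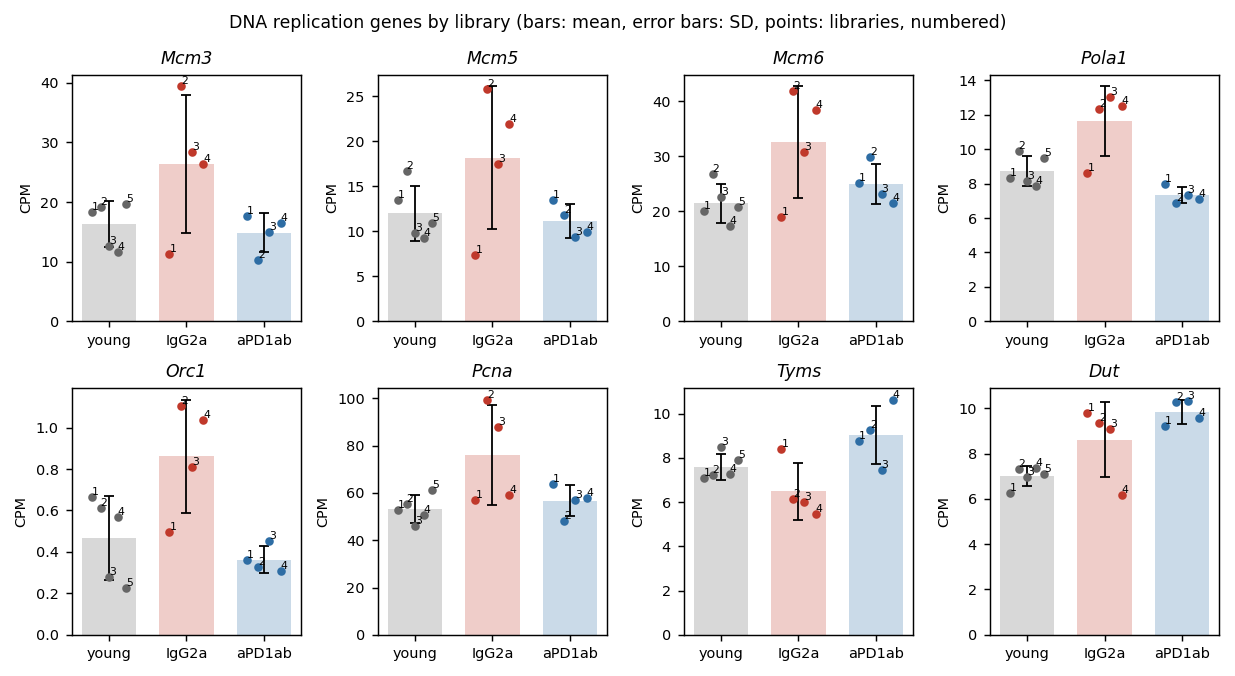
Level in CPM (vertical axes, from 0) of 8 DNA replication genes in young, IgG2a and aPD1ab mice; bars are group means, error bars the SD (n = 5, 4 and 4) and numbered points the libraries. In Mcm3, Mcm5, Mcm6, Pola1 and Orc1, IgG2a libraries 2 to 4 stand above the young and aPD1ab libraries. IgG2a library 1 lies with or below the young libraries in these genes, but above all aPD1ab libraries in Pola1 and Orc1. Tyms has IgG2a libraries 2 to 4 at the bottom (5.46 to 6.13 CPM), and Dut is high in all aged libraries except IgG2a library 4 (6.15 CPM).

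Among the genes that switch on the helicase, Gins1 and Gins2 had the largest estimates of all members against young and Gins4 a small but even one. Without IgG2a library 1, 4 of the 6 were higher than in young mice (median 0.63) and 2 were lower with aPD1ab (median -0.79), where 22.1% and 13.2% of all genes were. With all libraries the medians were 0.41 and -0.51, and none was called.

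Gins1, a subunit of the GINS complex, was at 1.91, 1.07, 1.23, 0.873 and 2.09 CPM in young libraries 1 to 5, 0.850, 4.78, 2.75 and 2.77 in IgG2a libraries 1 to 4 and 1.48, 2.24, 2.61 and 1.55 in aPD1ab libraries 1 to 4. Each of IgG2a libraries 2 to 4 was above all others, with library 2 well ahead. Gins1 had a log2 fold change in IgG2a against young mice of 1.03 ± 0.46 over all libraries (adjusted p = 0.134) and 1.33 ± 0.33 without IgG2a library 1 (adjusted p = 0.00766). For Gins1, the log2 fold change in aPD1ab against IgG2a mice was -0.52 ± 0.49 over all libraries (adjusted p = 0.495) and -0.84 ± 0.33 without IgG2a library 1 (adjusted p = 0.0871).

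Gins2, whose exons overlap Gse1, was at 1.49, 2.32, 0.833, 1.44 and 2.02 CPM in young libraries 1 to 5, 1.88, 5.28, 3.39 and 2.97 in IgG2a libraries 1 to 4 and 1.72, 1.83, 1.30 and 2.25 in aPD1ab libraries 1 to 4. It was higher in each IgG2a library from 2 to 4 than in any young or aPD1ab library. Between IgG2a and young mice, Gins2 differed by a log2 fold change of 1.12 ± 0.36 over all libraries (adjusted p = 0.0555) and 1.32 ± 0.32 without IgG2a library 1 (adjusted p = 0.00713). Its log2 fold change in aPD1ab against IgG2a mice was -0.94 ± 0.36 over all libraries (adjusted p = 0.138) and -1.15 ± 0.30 without IgG2a library 1 (adjusted p = 0.0254). Gse1 itself ranged from 8.22 to 26.3 CPM.

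Gins4, the GINS subunit with the highest level per kilobase, was at 10.3, 8.98, 8.33, 8.36 and 10.5 CPM in young libraries 1 to 5, 11.1, 12.7, 10.8 and 10.8 in IgG2a libraries 1 to 4 and 11.8, 9.73, 14.8 and 11.4 in aPD1ab libraries 1 to 4. All 4 IgG2a libraries were above all young libraries, by a small margin, and the aPD1ab libraries ran from 9.73 to 14.8 CPM. Gins4 had a log2 fold change in IgG2a against young mice of 0.35 ± 0.12 over all libraries (adjusted p = 0.0652) and 0.36 ± 0.13 without IgG2a library 1 (adjusted p = 0.0418). For Gins4, the log2 fold change in aPD1ab against IgG2a mice was 0.054 ± 0.16 over all libraries (adjusted p = 0.846) and 0.030 ± 0.17 without IgG2a library 1 (adjusted p = 0.907).

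Cdc45, which travels with MCM and GINS as the active helicase, was at 2.11, 1.95, 1.19, 1.88 and 2.31 CPM in young libraries 1 to 5, 1.29, 2.82, 2.32 and 3.18 in IgG2a libraries 1 to 4 and 1.40, 1.83, 1.36 and 1.49 in aPD1ab libraries 1 to 4. IgG2a library 3, at 2.32 CPM, was barely above the highest young library, at 2.31. Cdc45 had an aPD1ab to IgG2a log2 fold change of -0.66 ± 0.33 over all libraries (adjusted p = 0.221) and -0.88 ± 0.26 without IgG2a library 1 (adjusted p = 0.0362). Cdc45 in IgG2a against young mice gave a log2 fold change of 0.40 ± 0.30 over all libraries (adjusted p = 0.360) and 0.60 ± 0.25 without IgG2a library 1 (adjusted p = 0.0714). The difference from young passed the threshold in neither fit. Mcm10 was called only against young without IgG2a library 1, at a log2 fold change of 0.42 ± 0.34 over all libraries (adjusted p = 0.397) and 0.66 ± 0.25 without IgG2a library 1 (adjusted p = 0.0496), and Gins3 in no comparison.

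Of the 8 polymerase and primase genes, 5 were higher against young without IgG2a library 1 (median 0.58) and 3 were lower with aPD1ab (median -0.51), against 22.1% and 13.2% of all genes. Over all libraries the medians were 0.48 and -0.35, with 1 call, that of Pola2 against young, where 9.05% of all genes were higher. Primase itself, Prim1 and Prim2, was called in no comparison. Prim1 was at a log2 fold change of 0.49 ± 0.29 over all libraries (adjusted p = 0.249) and 0.57 ± 0.30 without IgG2a library 1 (adjusted p = 0.143) against young, and Prim2 at one of 0.45 ± 0.23 over all libraries (adjusted p = 0.186) and 0.49 ± 0.24 without IgG2a library 1 (adjusted p = 0.124).

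Pola2, the accessory B subunit of polymerase alpha (ENSMUSG00000024833, chromosome 19, 5940542 to 5964202, minus strand), was at 10.7, 10.8, 9.37, 8.79 and 10.6 CPM in young libraries 1 to 5, 10.2, 17.99, 15.7 and 19.8 in IgG2a libraries 1 to 4 and 12.8, 7.98, 13.3 and 14.2 in aPD1ab libraries 1 to 4. Only IgG2a libraries 2 to 4 exceeded aPD1ab library 4, while IgG2a library 1 lay within the young range. Pola2 in IgG2a against young mice gave a log2 fold change of 0.73 ± 0.19 over all libraries (adjusted p = 0.0298) and 0.88 ± 0.12 without IgG2a library 1 (adjusted p = 0.000182). These were the smallest adjusted p of the 39 genes in both fits. Pola2 had an aPD1ab to IgG2a log2 fold change of -0.42 ± 0.25 over all libraries (adjusted p = 0.291) and -0.59 ± 0.20 without IgG2a library 1 (adjusted p = 0.0545).

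Pola1, the catalytic subunit (ENSMUSG00000006678, chromosome X, 93304767 to 93632155, minus strand), was at 8.33, 9.86, 8.18, 7.85 and 9.48 CPM in young libraries 1 to 5, 8.62, 12.3, 13.03 and 12.5 in IgG2a libraries 1 to 4 and 7.97, 6.88, 7.32 and 7.11 in aPD1ab libraries 1 to 4. The aPD1ab libraries were all below the IgG2a libraries, and only aPD1ab library 1 was within the young range. Pola1 in aPD1ab mice differed from IgG2a mice by -0.68 ± 0.18 over all libraries (adjusted p = 0.109) and -0.81 ± 0.13 without IgG2a library 1 (adjusted p = 0.00761) on the log2 scale. For Pola1 the log2 fold change of IgG2a against young was 0.47 ± 0.15 over all libraries (adjusted p = 0.0564) and 0.58 ± 0.12 without IgG2a library 1 (adjusted p = 0.00220).

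Pole, the catalytic subunit of polymerase epsilon, was at 5.06, 5.43, 2.86, 2.31 and 3.28 CPM in young libraries 1 to 5, 2.46, 7.12, 6.68 and 7.81 in IgG2a libraries 1 to 4 and 3.002, 4.76, 3.12 and 2.98 in aPD1ab libraries 1 to 4. The top 3 were IgG2a libraries 2 to 4, and aPD1ab library 2 stood above the other aPD1ab libraries. Pole in IgG2a against young mice gave a log2 fold change of 0.73 ± 0.37 over all libraries (adjusted p = 0.184) and 0.98 ± 0.27 without IgG2a library 1 (adjusted p = 0.0128). Pole had an aPD1ab to IgG2a log2 fold change of -0.80 ± 0.37 over all libraries (adjusted p = 0.198) and -1.07 ± 0.24 without IgG2a library 1 (adjusted p = 0.0146).

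Pole2, its second subunit, was at 1.57, 1.77, 1.47, 1.68 and 1.60 CPM in young libraries 1 to 5, 1.14, 4.21, 2.58 and 3.11 in IgG2a libraries 1 to 4 and 1.96, 1.30, 1.76 and 1.18 in aPD1ab libraries 1 to 4. The young libraries were close together (1.47 to 1.77 CPM), and IgG2a library 1 lay below all of them. Pole2 had a log2 fold change in IgG2a against young mice of 0.83 ± 0.33 over all libraries (adjusted p = 0.103) and 1.09 ± 0.22 without IgG2a library 1 (adjusted p = 0.00252). For Pole2, the log2 fold change in aPD1ab against IgG2a mice was -0.86 ± 0.41 over all libraries (adjusted p = 0.204) and -1.13 ± 0.30 without IgG2a library 1 (adjusted p = 0.0247).

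Pold3, a subunit of polymerase delta and the polymerase gene with the highest level per kilobase, was at 21.4, 25.8, 20.9, 22.6 and 21.1 CPM in young libraries 1 to 5, 22.1, 29.6, 29.03 and 30.3 in IgG2a libraries 1 to 4 and 24.9, 21.6, 31.5 and 22.5 in aPD1ab libraries 1 to 4. aPD1ab library 3 was the highest of the 13, above the IgG2a libraries. Pold3 in IgG2a against young mice gave a log2 fold change of 0.38 ± 0.13 over all libraries (adjusted p = 0.0643) and 0.46 ± 0.094 without IgG2a library 1 (adjusted p = 0.00250). Pold3 had an aPD1ab to IgG2a log2 fold change of -0.16 ± 0.16 over all libraries (adjusted p = 0.540) and -0.27 ± 0.14 without IgG2a library 1 (adjusted p = 0.180). Pold1, the catalytic subunit of polymerase delta, was called in no comparison.

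The next group is the clamp and its loader. Against young without IgG2a library 1, 4 of the 6 were higher (median 0.58), and with aPD1ab 2 were lower (median -0.28), beside 22.1% and 13.2% of all genes. Over all libraries the medians were 0.48 and -0.14, and none was called.

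Pcna, the sliding clamp and the most abundant member (ENSMUSG00000027342, chromosome 2, 132249162 to 132253314, minus strand), was at 52.9, 55.3, 45.9, 50.6 and 61.5 CPM in young libraries 1 to 5, 56.9, 99.5, 87.96 and 59.2 in IgG2a libraries 1 to 4 and 64.01, 47.96, 57.1 and 57.8 in aPD1ab libraries 1 to 4. IgG2a libraries 2 and 3 were far above the rest, but IgG2a library 4 fell below young library 5 and aPD1ab library 1. Pcna had a log2 fold change in IgG2a against young mice of 0.58 ± 0.18 over all libraries (adjusted p = 0.0524) and 0.69 ± 0.16 without IgG2a library 1 (adjusted p = 0.00497). For Pcna, the log2 fold change in aPD1ab against IgG2a mice was -0.44 ± 0.21 over all libraries (adjusted p = 0.205) and -0.57 ± 0.18 without IgG2a library 1 (adjusted p = 0.0495).

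Rfc2, a subunit of the clamp loader (ENSMUSG00000023104, chromosome 5, 134581366 to 134601805, plus strand), was at 29.6, 27.1, 26.6, 23.8 and 27.5 CPM in young libraries 1 to 5, 25.3, 40.1, 34.5 and 39.5 in IgG2a libraries 1 to 4 and 33.6, 38.9, 35.7 and 31.99 in aPD1ab libraries 1 to 4. Both the aPD1ab libraries and IgG2a libraries 2 to 4 were above all young libraries. Rfc2 in aPD1ab against young mice had a log2 fold change of 0.39 ± 0.094 (adjusted p = 0.0163). Rfc2 in IgG2a against young mice gave a log2 fold change of 0.44 ± 0.15 over all libraries (adjusted p = 0.0622) and 0.55 ± 0.093 without IgG2a library 1 (adjusted p = 0.000772). Rfc2 had an aPD1ab to IgG2a log2 fold change of -0.0057 ± 0.17 over all libraries (adjusted p = 0.985) and -0.14 ± 0.12 without IgG2a library 1 (adjusted p = 0.412).

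Rfc5, another loader subunit, was at 9.91, 7.94, 7.50, 7.42 and 8.25 CPM in young libraries 1 to 5, 7.18, 13.8, 11.9 and 14.2 in IgG2a libraries 1 to 4 and 9.41, 13.1, 9.07 and 11.6 in aPD1ab libraries 1 to 4. Every young library was below IgG2a libraries 2 to 4, and aPD1ab library 2 was within their range. Rfc5 in IgG2a against young mice gave a log2 fold change of 0.59 ± 0.21 over all libraries (adjusted p = 0.0715) and 0.76 ± 0.13 without IgG2a library 1 (adjusted p = 0.000824). Rfc5 had an aPD1ab to IgG2a log2 fold change of -0.14 ± 0.25 over all libraries (adjusted p = 0.741) and -0.33 ± 0.18 without IgG2a library 1 (adjusted p = 0.201). Rfc3 was called only against young without IgG2a library 1, at a log2 fold change of 0.52 ± 0.21 over all libraries (adjusted p = 0.105) and 0.60 ± 0.21 without IgG2a library 1 (adjusted p = 0.0391).

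Rfc1, the large subunit, was singled out after its values were seen, for its narrow range in young mice. It was at 37.7, 37.2, 37.6, 37.1 and 37.4 CPM in young libraries 1 to 5, 37.1, 40.9, 40.7 and 38.1 in IgG2a libraries 1 to 4 and 35.3, 28.7, 31.7 and 32.97 in aPD1ab libraries 1 to 4. The 4 aPD1ab libraries were below all 9 others. Rfc1 in aPD1ab against young mice had a log2 fold change of -0.21 ± 0.084 (adjusted p = 0.104). Rfc1 in aPD1ab mice differed from IgG2a mice by -0.30 ± 0.11 over all libraries (adjusted p = 0.132) and -0.34 ± 0.10 without IgG2a library 1 (adjusted p = 0.0425) on the log2 scale. Rfc4 passed the threshold in no comparison.

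The 3 genes of RPA had a median log2 fold change against young of 0.47 over all libraries and 0.60 without IgG2a library 1, where those of all 39 genes tested were 0.47 and 0.60. Rpa3 (ENSMUSG00000012483, chromosome 6, 8255936 to 8259173, minus strand) was at 2.94, 4.12, 3.61, 3.93 and 3.92 CPM in young libraries 1 to 5, 4.98, 5.48, 5.71 and 5.04 in IgG2a libraries 1 to 4 and 3.92, 2.97, 5.28 and 4.02 in aPD1ab libraries 1 to 4. All 4 IgG2a libraries lay above the young libraries, library 1 included. Rpa3 in IgG2a against young mice gave a log2 fold change of 0.58 ± 0.15 over all libraries (adjusted p = 0.0324) and 0.60 ± 0.17 without IgG2a library 1 (adjusted p = 0.0132). Rpa3 had an aPD1ab to IgG2a log2 fold change of -0.41 ± 0.21 over all libraries (adjusted p = 0.232) and -0.45 ± 0.22 without IgG2a library 1 (adjusted p = 0.158).

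Rpa2, the middle subunit, was at 8.83, 7.97, 7.46, 5.40 and 8.40 CPM in young libraries 1 to 5, 6.04, 10.3, 10.6 and 13.3 in IgG2a libraries 1 to 4 and 8.85, 7.45, 14.4 and 8.91 in aPD1ab libraries 1 to 4. aPD1ab library 3 was the highest of all and the aPD1ab and IgG2a ranges overlapped. For Rpa2 the log2 fold change of IgG2a against young was 0.47 ± 0.23 over all libraries (adjusted p = 0.173) and 0.64 ± 0.17 without IgG2a library 1 (adjusted p = 0.0103). Rpa2 in aPD1ab mice differed from IgG2a mice by -0.043 ± 0.29 over all libraries (adjusted p = 0.935) and -0.23 ± 0.23 without IgG2a library 1 (adjusted p = 0.472) on the log2 scale. Rpa1, the DNA-binding large subunit and the most abundant of the 3 per kilobase, was at 32.6, 35.8, 35.7, 33.3 and 42.4 CPM in young libraries 1 to 5, 35.4, 45.8, 34.4 and 49.5 in IgG2a libraries 1 to 4 and 33.5, 38.7, 37.6 and 37.95 in aPD1ab libraries 1 to 4. All 3 groups overlapped. Rpa1 had a log2 fold change in IgG2a against young mice of 0.26 ± 0.14 over all libraries (adjusted p = 0.194) and 0.32 ± 0.13 without IgG2a library 1 (adjusted p = 0.0614). For Rpa1, the log2 fold change in aPD1ab against IgG2a mice was -0.17 ± 0.16 over all libraries (adjusted p = 0.480) and -0.25 ± 0.15 without IgG2a library 1 (adjusted p = 0.226).

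Of the genes that finish the lagging strand, Lig1, the ligase that seals it, was at 9.87, 12.8, 8.25, 7.62 and 10.9 CPM in young libraries 1 to 5, 9.35, 25.5, 14 and 15.3 in IgG2a libraries 1 to 4 and 13.1, 11.4, 11 and 12.3 in aPD1ab libraries 1 to 4. IgG2a library 2 was far above IgG2a libraries 3 and 4, which in turn were above all young and aPD1ab libraries. Between IgG2a and young mice, Lig1 differed by a log2 fold change of 0.77 ± 0.28 over all libraries (adjusted p = 0.0778) and 0.95 ± 0.23 without IgG2a library 1 (adjusted p = 0.00712). Its log2 fold change in aPD1ab against IgG2a mice was -0.44 ± 0.28 over all libraries (adjusted p = 0.324) and -0.64 ± 0.22 without IgG2a library 1 (adjusted p = 0.0569). Fen1, the flap nuclease, was listed at 0.113 to 0.641 CPM and was tested only in aPD1ab against young (log2 fold change 0.14 ± 0.54, adjusted p = 0.879).

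The 5 genes of nucleotide supply held estimates on both sides of 0. Tyms, thymidylate synthase (ENSMUSG00000025747, chromosome 5, 30058202 to 30073617, minus strand), was at 7.09, 7.21, 8.49, 7.28 and 7.91 CPM in young libraries 1 to 5, 8.38, 6.13, 5.98 and 5.46 in IgG2a libraries 1 to 4 and 8.77, 9.24, 7.43 and 10.6 in aPD1ab libraries 1 to 4. IgG2a libraries 2 to 4 were below every young and aPD1ab library, and no other of the 40 genes had these libraries below all young ones, where 27.2% of all genes did. For Tyms the log2 fold change of IgG2a against young was -0.16 ± 0.14 over all libraries (adjusted p = 0.447) and -0.32 ± 0.13 without IgG2a library 1 (adjusted p = 0.0707). This was the only estimate below 0 among the 39. Tyms in aPD1ab mice differed from IgG2a mice by 0.46 ± 0.19 over all libraries (adjusted p = 0.158) and 0.60 ± 0.18 without IgG2a library 1 (adjusted p = 0.0383) on the log2 scale.

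Tk1, the thymidine kinase of the salvage route, had estimates of the same signs as the licensing genes. It was at 9.95, 13.7, 6.43, 9.23 and 9.11 CPM in young libraries 1 to 5, 7.24, 20.9, 18.6 and 14.4 in IgG2a libraries 1 to 4 and 9.29, 14.7, 11.2 and 11.4 in aPD1ab libraries 1 to 4. Every young library was below IgG2a libraries 2 to 4, though aPD1ab library 2 reached 14.7 CPM, above IgG2a library 4. Tk1 in IgG2a against young mice gave a log2 fold change of 0.72 ± 0.31 over all libraries (adjusted p = 0.120) and 0.95 ± 0.21 without IgG2a library 1 (adjusted p = 0.00497). Tk1 had an aPD1ab to IgG2a log2 fold change of -0.41 ± 0.32 over all libraries (adjusted p = 0.419) and -0.65 ± 0.21 without IgG2a library 1 (adjusted p = 0.0445).

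Dut, the dUTPase that keeps uracil out of DNA (ENSMUSG00000027203, chromosome 2, 125247190 to 125258608, plus strand), was at 6.26, 7.33, 6.95, 7.35 and 7.09 CPM in young libraries 1 to 5, 9.79, 9.36, 9.10 and 6.15 in IgG2a libraries 1 to 4 and 9.21, 10.3, 10.3 and 9.56 in aPD1ab libraries 1 to 4. All aPD1ab libraries and IgG2a libraries 1 to 3 were above the young libraries, while IgG2a library 4 was below them. Dut in aPD1ab against young mice had a log2 fold change of 0.50 ± 0.11 (adjusted p = 0.0123). Dut had a log2 fold change in IgG2a against young mice of 0.36 ± 0.15 over all libraries (adjusted p = 0.108) and 0.29 ± 0.16 without IgG2a library 1 (adjusted p = 0.153). For Dut, the log2 fold change in aPD1ab against IgG2a mice was 0.18 ± 0.18 over all libraries (adjusted p = 0.528) and 0.23 ± 0.19 without IgG2a library 1 (adjusted p = 0.375).

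Rrm1, the large subunit of ribonucleotide reductase, was at 22.1, 23.5, 18.6, 20.6 and 20.1 CPM in young libraries 1 to 5, 21.2, 28.1, 25.9 and 26.5 in IgG2a libraries 1 to 4 and 21.98, 20.4, 17.7 and 25.1 in aPD1ab libraries 1 to 4. The highest 3 of the 13 were IgG2a libraries 2 to 4. Rrm1 in IgG2a against young mice gave a log2 fold change of 0.34 ± 0.12 over all libraries (adjusted p = 0.0682) and 0.41 ± 0.097 without IgG2a library 1 (adjusted p = 0.00590). Rrm1 had an aPD1ab to IgG2a log2 fold change of -0.27 ± 0.15 over all libraries (adjusted p = 0.269) and -0.36 ± 0.14 without IgG2a library 1 (adjusted p = 0.0821). Rrm2, the small subunit, was called in no comparison, although its 4 aPD1ab libraries (5.44 to 6.72 CPM) lay just below its 4 IgG2a libraries (6.74 to 9.65 CPM).

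In both comparisons with IgG2a mice, the genes with E2F letters in their promoter had larger median differences than those without. The 7 genes without a window, among them Gins1 and Gins2, are in neither set. Without IgG2a library 1, the median log2 fold change against young was 0.87 for the 14 genes with the letters and 0.59 for the 18 tested genes without, and with aPD1ab against IgG2a it was -0.62 and -0.35. Over all libraries the values were 0.67 and 0.41, and -0.47 and -0.28. In aPD1ab against young they were -0.061 (13 genes) and 0.14 (19 genes), so the set with the letters had the smaller median in size. Over all libraries, the 2 genes called higher in IgG2a against young were both without the letters (2 of 18, against 0 of 14). Of all genes 9.05% were higher in that fit. The ranges of both sets overlapped in each comparison (0.29 to 1.11 and -0.32 to 0.95 in the first), and the difference between the sets was not tested.

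A second list of 38 replication genes, among them the kinase Cdc7, chromatin assembly factors and further polymerase subunits, held calls in both directions. Over all libraries 3 were higher and 1 lower in IgG2a against young mice, with a median of 0.36, and without IgG2a library 1, 17 were higher and 2 lower. Of all genes 9.05% were higher and 8.38% lower in the first fit, and 22.1% and 23.5% in the second. Chaf1b, a chromatin assembly factor, had a log2 fold change of 1.04 (SE 0.24, adjusted p = 0.0236) over all libraries and 1.21 (SE 0.20, adjusted p = 0.000626) without IgG2a library 1. Dbf4, the activator of the kinase Cdc7, was at 1.01 (SE 0.27, adjusted p = 0.0328) over all libraries and 1.21 (SE 0.19, adjusted p = 0.000475) without IgG2a library 1. Pold4, the smallest subunit of polymerase delta, was at 0.76 (SE 0.21, adjusted p = 0.0373) over all libraries and 0.94 (SE 0.100, adjusted p = 4.59e-05) without IgG2a library 1. Chtf8, of an alternative clamp loader, was at -0.20 (SE 0.11, adjusted p = 0.208) over all libraries and -0.29 (SE 0.094, adjusted p = 0.0262) without IgG2a library 1.

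With aPD1ab against IgG2a none of the 38 was called over all libraries, and without IgG2a library 1 18 were lower and 3 higher (median -0.43), where 13.2% and 17.1% of all genes were. Dna2, a nuclease of lagging-strand processing, was at -0.92 (SE 0.34, adjusted p = 0.132) over all libraries and -1.20 (SE 0.12, adjusted p = 0.00640) without IgG2a library 1. Samhd1, which breaks down deoxynucleotides and is abundant in myeloid cells, was at -0.83 (SE 0.33, adjusted p = 0.15) over all libraries and -1.08 (SE 0.18, adjusted p = 0.00777) without IgG2a library 1. In the other direction, Rnaseh2c, a subunit of RNase H2, was at 0.79 (SE 0.18, adjusted p = 0.109) over all libraries and 0.79 (SE 0.20, adjusted p = 0.0206) without IgG2a library 1. In aPD1ab against young 4 of the 38 were higher and 3 lower, no more than the 12.4% and 9.97% of all genes. Rnaseh2c was at 1.26 (SE 0.22, adjusted p = 0.00535), Rnaseh2a at 0.48 (SE 0.11, adjusted p = 0.0114), Rrm2b, the p53-controlled reductase subunit, at -0.67 (SE 0.13, adjusted p = 0.00709), and Dna2 at -0.61 (SE 0.16, adjusted p = 0.0211).

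The 30 genes that control entry into S phase held estimates on both sides of 0. In IgG2a against young, 18 of the 29 tested were above 0 in both fits; 4 were higher and 1 lower over all libraries (9.05% and 8.38% of all genes were), and 13 higher and 4 lower without IgG2a library 1 (22.1% and 23.5%). Cdk4, the G1 kinase, was at 0.38 (SE 0.096, adjusted p = 0.0284) over all libraries and 0.39 (SE 0.092, adjusted p = 0.00549) without IgG2a library 1. Cdkn2d, an inhibitor of it, was at 0.44 (SE 0.11, adjusted p = 0.0303) over all libraries and 0.40 (SE 0.12, adjusted p = 0.0192) without IgG2a library 1. Cdkn1c, an inhibitor made by resting podocytes, was at -1.36 (SE 0.33, adjusted p = 0.0264) over all libraries and -1.61 (SE 0.37, adjusted p = 0.00755) without IgG2a library 1. The kinase Cdk6 was at 0.32 (SE 0.30, adjusted p = 0.467) over all libraries and 0.57 (SE 0.087, adjusted p = 0.000423) without IgG2a library 1, the repressor E2f8 at 0.82 (SE 0.38, adjusted p = 0.145) over all libraries and 1.09 (SE 0.24, adjusted p = 0.00361) without IgG2a library 1, and E2f5 at -0.19 (SE 0.16, adjusted p = 0.427) over all libraries and -0.42 (SE 0.10, adjusted p = 0.00607) without IgG2a library 1.

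With aPD1ab against IgG2a, 10 of these 30 were lower and 1 higher without IgG2a library 1, where 13.2% and 17.1% of all genes were. The activator E2f2 was at -0.69 (SE 0.36, adjusted p = 0.238) over all libraries and -0.98 (SE 0.16, adjusted p = 0.00777) without IgG2a library 1, the pocket protein Rbl1 at -0.76 (SE 0.22, adjusted p = 0.109) over all libraries and -0.93 (SE 0.15, adjusted p = 0.00777) without IgG2a library 1, and E2f5 at 0.40 (SE 0.20, adjusted p = 0.223) over all libraries and 0.61 (SE 0.15, adjusted p = 0.0180) without IgG2a library 1. None was called over all libraries, where 7 had an unadjusted p under 0.05 and the lowest adjusted p from edgeR was 0.109. In aPD1ab against young, 3 were higher and 5 lower (12.4% and 9.97% of all genes were): Cdk4 at 0.57 (SE 0.098, adjusted p = 0.00542) and Cdkn2d at 0.54 (SE 0.13, adjusted p = 0.0155) in the first direction, and Ccnd2, a D-type cyclin, at -0.96 (SE 0.18, adjusted p = 0.00658) and Rb1, the retinoblastoma protein, at -0.57 (SE 0.13, adjusted p = 0.0140) in the second.

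The 25 mitosis genes had larger medians than the DNA replication genes in both comparisons with IgG2a mice, a difference that was not tested. Their median log2 fold change was 0.73 in IgG2a against young and -1.13 in aPD1ab against IgG2a, with 25 of 25 above 0 and 25 of 25 below 0. Over all libraries 2 were higher against young and 0 lower with aPD1ab, where 9.05% and 0% of all genes were. That share of 2 in 25 is no more than the background. Without IgG2a library 1, 15 were higher (median 1.04) and 21 lower (median -1.41), where 22.1% and 13.2% of all genes were. Ndc80, of the kinetochore, was at 1.41 (SE 0.34, adjusted p = 0.0254) over all libraries and 1.62 (SE 0.28, adjusted p = 0.000971) without IgG2a library 1 against young. Ube2c, of mitotic exit, was at 1.26 (SE 0.35, adjusted p = 0.0368) over all libraries and 1.47 (SE 0.29, adjusted p = 0.00224) without IgG2a library 1 in the same comparison. With aPD1ab against IgG2a, Bub1b, of the spindle checkpoint, was at -1.26 (SE 0.36, adjusted p = 0.109) over all libraries and -1.53 (SE 0.18, adjusted p = 0.00640) without IgG2a library 1, and Top2a, which untangles chromosomes, at -1.13 (SE 0.38, adjusted p = 0.123) over all libraries and -1.41 (SE 0.23, adjusted p = 0.00777) without IgG2a library 1. In aPD1ab against young 3 of the 25 mitosis genes were lower, a share near the 9.97% of all genes, and none was higher, among the 3 Nusap1, at -0.88 (SE 0.26, adjusted p = 0.0322), and Top2a, at -0.76 (SE 0.23, adjusted p = 0.0400), with a list median of -0.41, where the median of the DNA replication genes was 0.14. All p in the sentences on these lists are Benjamini-Hochberg adjusted values from edgeR over all genes tested.

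Markers of several other cell types differed in the same 3 IgG2a libraries as the DNA replication genes. Against young, 7 of the 8 macrophage markers were higher in IgG2a mice over all libraries and 8 without IgG2a library 1 (medians 1.27 and 1.49), and with aPD1ab 0 and 8 were lower (medians -0.98 and -1.24). Of all genes 9.05% and 22.1% were higher in the first comparison, and 0% and 13.2% lower in the second. Of the 10 proximal tubule markers, 10 were lower against young in both fits, and 0 and 9 were higher with aPD1ab. The shares of all genes were 8.38% and 23.5% lower, and 0% and 17.1% higher. The 6 T cell markers summed to 10.7 to 18.4 CPM in young libraries, 14.8 in IgG2a library 1, 29.4 to 46.9 in IgG2a libraries 2 to 4, and 13.9 to 18.9 in aPD1ab libraries. The 5 plasma cell markers summed to 27.7 to 59.8 CPM in young libraries and to 315 in IgG2a library 1, 361 to 802 in the other IgG2a libraries, and 31.2 to 517 in aPD1ab libraries. In IgG2a libraries 2 to 4 the summed markers of distal nephron, of endothelium and of mesangium and pericytes were below the young range, and those of B cells, NK cells, neutrophils and erythroid cells overlapped it. Endothelial markers were below it in IgG2a library 1 as well (658 CPM, against 694 to 1043 in young), as were mesangial and pericyte markers in IgG2a library 1 (128 CPM) and in all aPD1ab libraries (116 to 169.5 CPM, against 199.9 to 270.2 in young). Distal nephron markers in IgG2a library 1 were at 13490 CPM, the highest of the 13 libraries, against 6548 to 9217 in young. No marker of these lists was at 3 counts or fewer in all libraries. In aPD1ab against young, 3 of the 5 plasma cell and 2 of the 6 T cell markers were higher, where 12.4% of all genes were. Of the 10 podocyte markers 5 were lower, where 9.97% of all genes were. None of the 8 macrophage or 10 proximal tubule markers was called in that comparison. The part of these cells in the levels of the DNA replication genes was not tested.

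**Figure D5:**
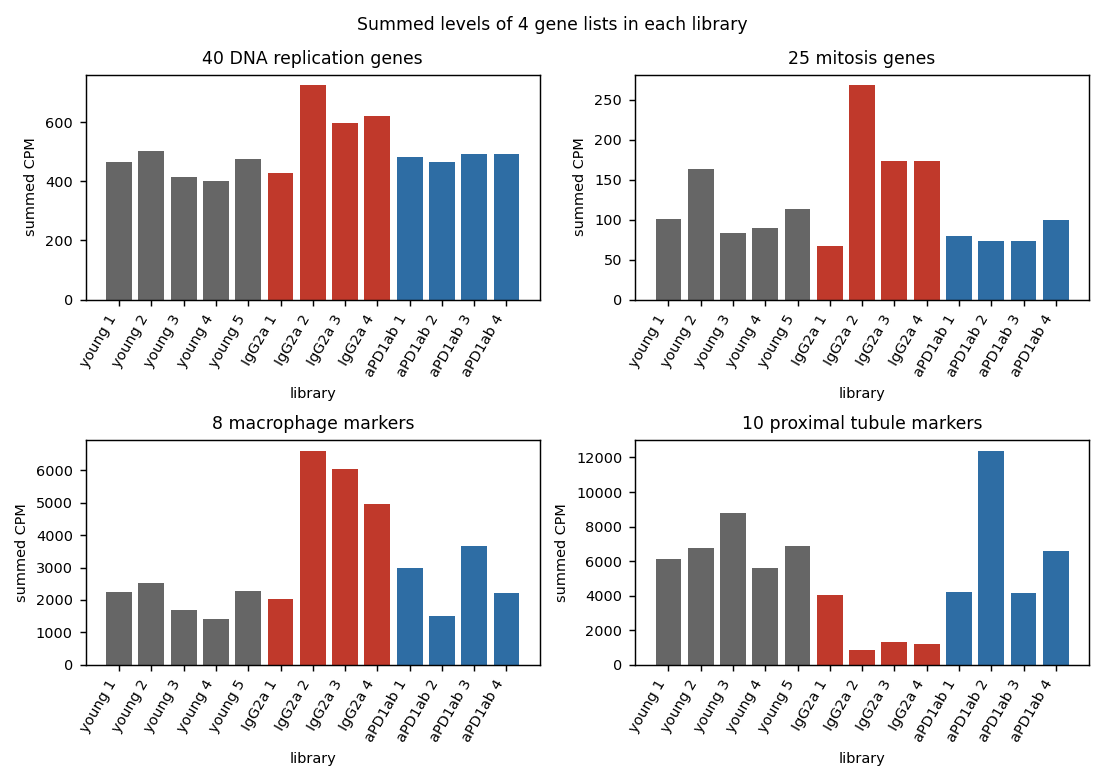
Summed CPM (vertical axes, from 0) of the 40 DNA replication genes, the 25 mitosis genes, the 8 macrophage markers and the 10 proximal tubule markers in each of the 13 libraries (young grey, IgG2a red, aPD1ab blue). IgG2a libraries 2 to 4 are the highest for the first 3 lists (598 to 725, 173 to 268 and 4972 to 6607 CPM) and the lowest for the proximal tubule markers (853 to 1306 CPM), and IgG2a library 1 differs from them in all 4 panels.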

How the data were processed

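The authors deposited read counts per Ensembl gene (whole numbers, not normalized) for podocyte-fraction RNA. The submitters' processing notes name HISAT2, featureCounts, mm10 and GRCm38; versions, annotation and strand setting are not given in the sources used here. Counts of overlapping or duplicated genes are therefore uncertain. Of the columns, 13 were assigned to groups by the numbers printed beside the points of the study's principal component plot; 2 others could not be assigned and were not used. Libraries were numbered in the order of those column numbers. Symbols were matched to GENCODE M21 for 45229 of 46078 genes.

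The groups were compared pairwise in edgeR 4.0.16 under R 4.3.3 (TMM, filterByExpr, robust quasi-likelihood F test, Benjamini-Hochberg adjustment over all genes tested, called at adjusted p under 0.05), and again without IgG2a library 1. The code was tested on simulated data. Alternatives used limma 3.58.1, DESeq2 1.42.0, other scalings, filters and fits, a 2-fold threshold and each library left out in turn. Library totals speak to counting error only. Members and lists were chosen with earlier results of these data known. Values per library are given for members called in any fit, up to the 26 with the smallest p, and for the member with the highest level per kilobase in each role, 28 in all, and for Rfc1, chosen after its values were seen. Of the other lists, up to 2 genes in each direction with the smallest p per comparison are named, apart from a gene that is not reported here. Counts over IgG2a libraries 2 to 4 and the split by E2F letters were chosen after seeing the data. Promoter windows are RefSeq's (GRCm38.p6).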

Additional observations from a re-analysis of the deposited data

Results flagged for a closer look

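In each group, the lowest or highest library was marked where its gap to the next library, as a share of the range of the group, exceeded Dixon's 95% critical value. Chance marks about 1 in 20 groups; of 120 groups of values tested (40 genes in 3 groups), 4 were marked, 3 of them low and 1 high. IgG2a library 1 was low for Pola1, at 8.617 CPM where the next library held 12.3, and for Pold3, at 22.07 CPM where the next held 29.0. Young library 1 was low for Gins3, at 1.783 CPM against 2.78 for the next. aPD1ab library 2 was high for Pole, at 4.763 CPM against 3.12 for the next.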

How the results depend on the processing

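With library totals in place of TMM, the median of all genes shifted to -0.38 (IgG2a vs young), 0.24 (aPD1ab vs IgG2a) and -0.11 (aPD1ab vs young), and the member medians moved from 0.47, -0.39 and 0.14 to 0.022, -0.11 and 0.019; relative to all genes they were 0.40, -0.35 and 0.13, against 0.44, -0.38 and 0.12 with TMM. Under that scaling 17 of 39 members changed direction in IgG2a vs young, 13 in aPD1ab vs IgG2a and 5 in aPD1ab vs young; of those called in a fit of IgG2a vs young, 7 turned: Mcm2 -0.088, Mcm4 -0.020, Gins4 -0.062, Pold3 -0.075, Rfc2 -0.011, Rpa2 -0.0064 and Rrm1 -0.099. For IgG2a vs young, members called higher numbered 2, but 0 with library totals, 13 with DESeq2, 28 with voom, 1 without the count filter, 0 over 2-fold, and 0 to 27 with 1 library left out, 27 only without IgG2a library 1; the median then ran from 0.40 to 0.60. For aPD1ab vs IgG2a, where 0 were called, DESeq2 called 5 lower, voom 17 lower and 1 higher, and 1 fit of all 3 groups 4 lower; with 1 library left out, 0 to 14 were lower and 0 to 1 higher, all of these without IgG2a library 1, and the median ran from -0.47 to -0.24. For aPD1ab vs young, 3 higher became 0 with library totals, 5 with DESeq2, 1 in the fit of all 3 groups, 0 over 2-fold and 2 to 5 with 1 library left out (5 without aPD1ab library 2), DESeq2 called 1 lower, and the median ran from 0.056 to 0.19. Except for the fits without IgG2a library 1, the shares of all genes called under these alternatives are not given here. Those counts therefore have no background beside them. The causes were not tested. Over all alternatives the 39 tested members kept their direction in 605 of 624 values for IgG2a vs young, 551 of 585 for aPD1ab vs IgG2a and 598 of 622 for aPD1ab vs young, and 22, 24 and 26 members did so in every alternative. No paired analysis was possible because the labels give no replicate numbers shared between the groups. Genes at a few counts per library, such as Orc1 and Fen1, are limited by depth.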
